A study of Mus musculus with 2 samples.

Results

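NK cells, the innate lymphocytes that kill virus-infected and transformed cells, were chosen in bone marrow of diabetic and control mice by their own transcripts, as barcodes that hold NK receptor transcripts and none of the T cell receptor complex. A barcode was a member when at least 2 of the 6 genes Ncr1, Klrb1c, Klre1, Klra8, Klrd1 and Eomes had a count and when Cd3d, Cd3e, Cd3g, Trac, Cd79a and Siglech were all at 0. This gave 149 of the 28382 kept cells. They were 61 of 15579 cells in the T1D library and 88 of 12803 cells in the control library. The members were chosen by the counts of these genes, so their presence is a description and not a result.

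NK cells arise in the marrow from lymphoid progenitors that depend on IL-15, and Eomes, Tbx21 and Id2 are among the transcription factors of their program. A maturing NK cell acquires Ly49 receptors one by one, in combinations that differ from cell to cell. Inhibitory Ly49 receptors read MHC class I on the cell met, whereas activating receptors signal through adaptors such as DAP12, the product of Tyrobp. The mature cell carries perforin and granzymes in granules and releases interferon gamma and CC chemokines.

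The T1D library came from C57/BL6 mice given streptozotocin, which is toxic to the beta cells of the pancreas, and these mice had high blood sugar. The control library came from C57/BL6 mice given sodium citrate solution, with normal blood sugar. Marrow of femurs and tibias was digested with collagenase and dispase at 37 °C, freed of red blood cells by lysis and processed with the Singleron GEXSCOPE kit. Each group was 1 library. The labels do not give the age, sex or number of the mice. No test was made, and the intervals below are 95% intervals that cover counting error only.

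Cells were kept with 200 or more genes and no more than 20% of counts from the mitochondrial genome. Their median total was 2757 counts in the T1D library and 3633 in the control library, and the lowest totals were 1369 and 1904. Among members the medians lay close together, at 2847 counts in T1D and 2930.5 in control NK cells, with lowest totals of 1398 and 1907. The NK cells hold 193184 counts in T1D and 345477 in control in all, and 3 counts are worth 15.5 and 8.68 CPM, counts scaled to the summed counts of the NK cells of a library. No member barcode was shared by the libraries, and no doublet caller was run.

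The label was checked with 11 NK genes outside the rule: Nkg7, Gzma, Prf1, Klrk1, Il2rb, Ctsw, Txk, Tbx21, Klra4, Klra9 and Fasl. At least 3 of them were found in 46 of 61 T1D members (75.4%, exact binomial interval 62.7 to 85.5%) and in 81 of 88 control members (92.0%, 84.3 to 96.7%). Among B cells the same held for 0 of 113 T1D and 0 of 1351 control cells, which allows shares of up to 2.65% and 0.222%, though these B cells were picked with no rule gene. T cells share part of these genes: the same held for 29.5% of T1D and 30.5% of control CD8 T cells and for 23.4% and 34.9% of T cells without CD8. It held for 26 of 49 T1D cells (53.1%) and 54 of 76 control cells (71.1%) that had 2 rule genes together with a T cell gene. Every member held at least 1 of the 11 genes. Members with at most 1 were 8 of 61 in T1D and 2 of 88 in control, so the name rests on less evidence for more of the T1D cells.

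T cell receptor beta constant transcripts, which NK cells can carry without a rearranged receptor, remained in both sets of members. Trbc1 had 10 counts in T1D and 53 in control NK cells, and Trbc2 had 17 and 49. Cd4 and Cd6 were at 0 in both libraries. C1qa, C1qb and C1qc of macrophages and Pf4 and Itga2b of megakaryocytes were also at 0 in both.

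Neutrophil transcripts split the members of both libraries into a low and a high set. A list of 9 neutrophil genes took at least 4% of the counts of 19 of 61 T1D NK cells (31.1%) and of 18 of 88 control NK cells (20.5%). No T1D member lay between 2.55% and 4.33%, and no control member between 2.87% and 4.88%. The same limit was passed by 24.4% of T1D and 16.8% of control CD8 T cells, by 31.9% and 15.7% of T cells without CD8, and by 27.4% and 27.5% of B cells. Whether these are doublets or cells with captured free RNA was not tested. Results below are therefore also given for the 40 T1D and 66 control members under that limit and under 1% for hemoglobin genes and for Lyz2, called the low-background members. The 3 limits were set after the values per cell had been seen.

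**Figure D1:**
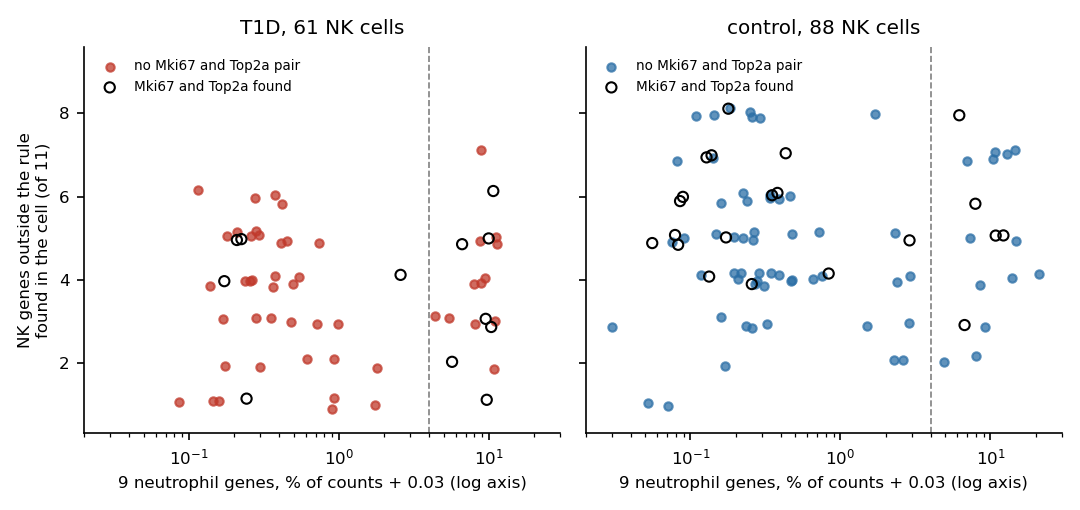
Each point is 1 NK cell; the horizontal log axis gives the share of its counts in 9 neutrophil genes (with 0.03 added) and the vertical axis how many of 11 NK genes outside the rule it held, with a small random offset. Open circles mark cells with counts of both Mki67 and Top2a, and the dashed line is the 4% limit, past which lie 19 of 61 T1D and 18 of 88 control cells.

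By the rule, NK cells were 0.392% of kept T1D cells (exact interval 0.300 to 0.503%) and 0.687% of kept control cells (0.552 to 0.846%), a ratio of 0.570 (0.404 to 0.799). In both libraries the share is that of barcodes, so fewer NK cells and a loss of the transcripts that define them cannot be told apart. The difference was uneven over the number of rule genes held. Members with exactly 2 of the 6 genes numbered 35 in T1D and 21 in control, and members with at least 3 numbered 26 and 67, which is 0.167% and 0.523% of kept cells. The ratio for at least 3 genes was 0.319 (0.195 to 0.508). Cells with exactly 1 of the 6 genes, which are not members, ran the other way: they numbered 135 in T1D and 81 in control, a ratio of 1.37 (1.03 to 1.83). Of these, 29 in T1D and 8 in control held at least 3 of the 11 outside genes.

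The share ratio depended on which genes defined the cell. With at least 3 of the 11 outside genes in place of the rule, and the same T cell, B cell and plasmacytoid limits, 96 T1D and 96 control cells qualified. That is 0.616% and 0.750% of kept cells, a ratio of 0.822 with an interval of 0.613 to 1.10, which includes 1. Of those cells, 46 in T1D and 81 in control were also members by the rule. Leaving out Klrd1 from the 6 genes gave a ratio of 0.390, and 0 counts of 7 further T cell genes gave 0.750 (0.482 to 1.17). These definitions by other gene sets were added after the data had been seen, apart from the 7 further T cell genes.

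CD8 T cells, which share the granule program, were 0.501% of T1D and 0.742% of control kept cells, a ratio of 0.675 (0.494 to 0.920). T cells without CD8 transcripts were 0.603% and 0.648%, a ratio of 0.931 (0.685 to 1.27). Among NK and T cells together, NK cells were 61 of 233 in T1D and 88 of 266 in control, a ratio of 0.791 whose interval of 0.561 to 1.11 includes 1.

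**Figure D2:**
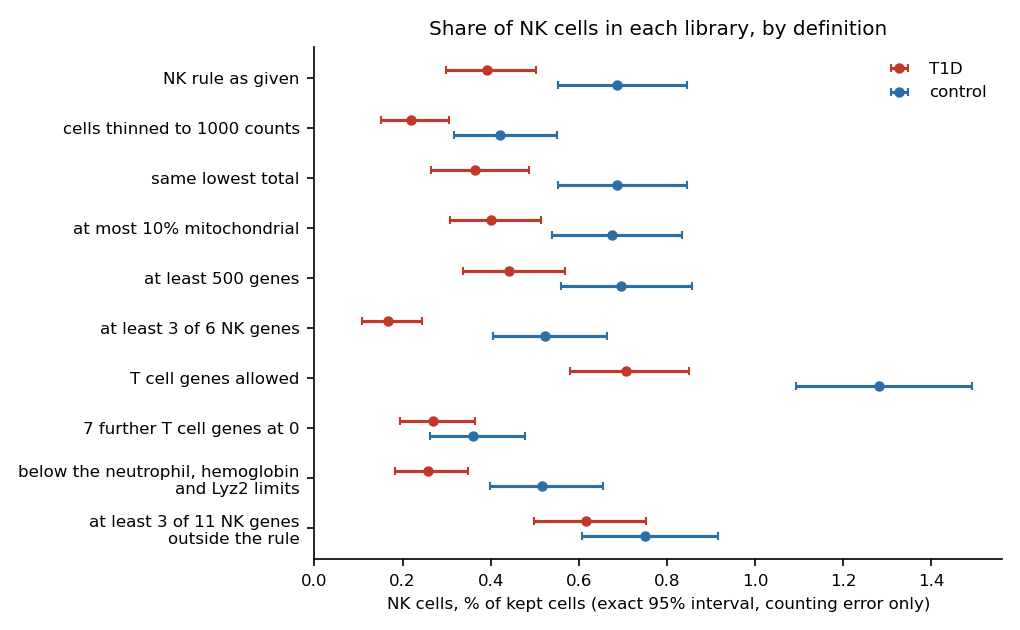
Points give NK cells as a percent of kept cells in the T1D library (red) and the control library (blue) under each definition named on the left, with exact 95% intervals for counting error. The T1D share is below the control share in every row, and the intervals overlap for at least 500 genes, for 7 further T cell genes at 0 and for the 11 NK genes outside the rule.

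Differences in expression are given as CPM over all NK cells of a library and as the log2 ratio of T1D over control after adding 5 CPM. A gene is called higher or lower when this ratio is at least 1 in size, the higher library has at least 50 CPM, and the counting interval of the fold excludes 1. Of 3138 genes at 50 CPM or more, 180 were called higher (5.74%) and 222 lower (7.07%) in T1D NK cells. Among low-background members 169 of 3290 genes were called higher (5.14%) and 206 lower (6.26%). Over 5485 genes with at least 10 counts the median log2 ratio was -0.05, and 2933 of them (53.5%) had a ratio below 1, which is the background for the counts by list below.

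Ly49 transcripts were lower in T1D NK cells. Over 8 Ly49 genes together, T1D NK cells had 116 counts (600.5 CPM) and control NK cells 475 counts (1375 CPM), 2.29-fold lower in T1D (1.87 to 2.83). Without Klra8, which belongs to the rule, the 7 others had 70 and 310 counts, 2.48-fold lower in T1D (1.91 to 3.26). Counted by cell, at least 1 of the 7 genes was found in 22 of 61 T1D NK cells (36.1%, 24.2 to 49.4%) and in 64 of 88 control NK cells (72.7%, 62.2 to 81.7%). With 1000 counts drawn from each cell, they were found in 14 of 61 T1D and 45 of 88 control cells. Among low-background members the shares were 40.0% and 74.2%, and among members with at least 3 rule genes 46.2% and 82.1%. Among members with exactly 2 rule genes they were found in 10 of 35 T1D cells (28.6%, 14.6 to 46.3%) and in 9 of 21 control cells (42.9%, 21.8 to 66.0%), and there the intervals overlap. Klra8, itself a Ly49 gene, counts among the rule genes, so the splits by number of rule genes are not an independent check.

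Cells with more than 1 receptor of the family were a smaller share in T1D. At least 2 of the 7 genes outside the rule were found in 5 of 61 T1D NK cells (8.20%, 2.72 to 18.1%) and in 35 of 88 control NK cells (39.8%, 29.5 to 50.8%). With 1000 counts drawn from each cell these were 1 of 61 and 17 of 88. Among members with exactly 2 rule genes they were 1 of 35 and 3 of 21. One of Klra1, Klra3, Klra7 and Klra9, which encode the inhibitory receptors Ly49A, Ly49C, Ly49G and Ly49I, was found in 16 of 61 T1D cells (26.2%, 15.8 to 39.1%) and in 57 of 88 control cells (64.8%, 53.9 to 74.7%).

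Klra1 was not detected in T1D NK cells. It had 0 counts in T1D and 29 counts in 17 cells in control (83.9 CPM). It was 5.41-fold lower in T1D when 3 counts are set for its sum, and the interval of the fold begins at 4.12. Control B cells held it in 26 of 1351 cells and T1D B cells in 0 of 113. T cells without CD8 had 1 count of Klra1 in T1D and 14 in control (3.14 and 45.6 CPM), and CD8 T cells 0 and 3. Other kept cells had 0.330 and 2.56 CPM, so the difference ran the same way there and in T cells without CD8. The zeros in T1D B cells and CD8 T cells show no direction. For B cells, 0 of 113 allows a share of up to 2.65%, against 1.92% in control, and the CD8 T cell counts are few. Klra9 had 6 counts in 6 T1D cells (31.1 CPM) and 58 counts in 25 control cells (168 CPM), 5.41-fold lower (2.34 to 15.3). Both were called lower under all 16 alternatives tried for single genes. Klra7 and Klra3 were not called: Klra7 had 19 counts in T1D and 44 in control (98.4 and 127 CPM), and Klra3 had 7 and 26 (36.2 and 75.3 CPM). Ly49 transcripts resemble each other, and 29.8% of the 50-base windows of Klra9 and 20.7% of those of Klra3 occur in another Ly49 transcript of GENCODE, against 2.98% for Klra1. Counts of Klra9 and Klra3 are therefore uncertain between family members.

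Klra4 and Klra8 encode the activating receptors Ly49D and Ly49H, the second a receptor for a protein of murine cytomegalovirus. Klra4 was called lower and Klra8 was not. Klra4 had 34 counts in 9 T1D cells (176 CPM) and 139 counts in 30 control cells (402 CPM), 2.29-fold lower (1.56 to 3.43). Klra8 is a gene of the rule, so its values only describe the members. It had 46 counts in 11 T1D cells (238 CPM) and 165 counts in 38 control cells (478 CPM), a log2 ratio of -0.99. Both genes were found together in 5 of 61 T1D cells (8.20%) and in 18 of 88 control cells (20.5%). The call of Klra4 ended in 5 of 16 alternatives, with log2 ratios of -0.93 among low-background members and -0.53 among members with at least 3 rule genes. B cells were picked with no rule gene, so Klra8 is at 0 in them by construction, and none held Klra4.

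The promoters of this pair are shown because they are the most alike of the 36 pairs among 9 Ly49 promoters, identical in 86.0% of aligned positions. Both lie on the minus strand of chromosome 6 in the Ly49 cluster, at chr6:130067222-130067521 for Klra4 and chr6:130129849-130130148 for Klra8 in build GRCm38.p6 of RefSeq, from 250 bases before to 50 bases after the annotated start. Capitals mark bases where the aligned pair differs or has a gap. The deposited counts were made on another build, so these positions serve only to place the sequences.
Klra4: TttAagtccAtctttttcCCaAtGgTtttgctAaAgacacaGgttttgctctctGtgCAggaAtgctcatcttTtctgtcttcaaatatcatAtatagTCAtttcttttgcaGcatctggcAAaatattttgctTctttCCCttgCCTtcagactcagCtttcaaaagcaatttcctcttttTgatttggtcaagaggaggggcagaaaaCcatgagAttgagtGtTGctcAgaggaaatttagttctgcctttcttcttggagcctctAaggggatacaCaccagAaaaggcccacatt
Klra8: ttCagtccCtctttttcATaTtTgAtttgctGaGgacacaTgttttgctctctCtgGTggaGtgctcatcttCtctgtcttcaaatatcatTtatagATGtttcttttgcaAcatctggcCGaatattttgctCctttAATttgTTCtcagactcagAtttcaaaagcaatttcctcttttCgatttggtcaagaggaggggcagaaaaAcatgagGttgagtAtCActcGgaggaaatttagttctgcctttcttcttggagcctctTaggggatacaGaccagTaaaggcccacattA
The pair differs at 41 bases of 300 in each promoter.

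For receptors of the NKG2 family the interval of the fold includes 1. Klrk1 encodes the activating receptor NKG2D, Klrc1 the inhibitory NKG2A and Klrc2 the activating NKG2C. Together they had 92 counts in T1D (476 CPM) and 146 in control NK cells (423 CPM), 1.13-fold higher in T1D (0.858 to 1.47). At least 1 of the 3 was found in 44 of 61 T1D cells (72.1%) and 69 of 88 control cells (78.4%). The groupings of Ly49 and NKG2 genes by cell were chosen after their values had been seen.

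Of the NKR-P1 genes, Klrb1b was called higher and Klrb1f was not called. Klrb1b, which encodes the inhibitory receptor NKR-P1B, had 45 counts in 19 T1D cells (233 CPM) and 20 counts in 13 control cells (57.9 CPM), 4.02-fold higher (2.33 to 7.19). It was called higher under all 16 alternatives. Klrb1f had 202 CPM in T1D and 162 in control, and the interval of its fold of 1.25 runs from 0.806 to 1.91. Klrb1c, a rule gene, had 295 CPM in T1D and 408 in control. Klri2, which pairs with Klre1, had 197 and 200 CPM, a fold of 0.985 (0.645 to 1.48). Of the 10 Ly49 and NKR-P1 genes with at least 10 counts outside the rule, 2 had a ratio above 1 and 8 below, with a median log2 ratio of -0.53. Of the 9 that reached 50 CPM, 1 was called higher and 3 lower.

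Costimulatory and adhesion receptors were among the lower genes. Cd2 had 8 counts in 8 T1D cells (41.4 CPM) and 45 counts in 30 control cells (130 CPM), 3.15-fold lower (1.47 to 7.73). Its ligand partner Cd48 had 4 and 30 counts, 4.19-fold lower (1.48 to 16.4). Slamf7, a receptor of the SLAM family, had 1 and 18 counts. The calls of Cd48 and Slamf7 each ended in 5 of 16 alternatives, with a log2 ratio of -1.17 for Cd48 among low-background members. Cd2, Cd48 and Slamf7 were also lower in T1D in other kept cells. Cd2 had 3.57 CPM in T1D and 11.9 in control there, Cd48 18.2 and 43.02, and Slamf7 2.16 and 25.2. In CD8 T cells Cd48 (38.98 and 54.2 CPM) and Slamf7 (0 and 45.6) were lower in T1D, but Cd2 (109 and 99.8) was not. In T cells without CD8, Cd2 was lower (53.4 and 127 CPM), but Cd48 (65.97 and 55.3) and Slamf7 (6 and 4 counts) were not. Fcgr3, which encodes the Fc receptor CD16, had 62.1 CPM in T1D and 107 in control and was not called.

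Among adaptors, Tyrobp had 31 counts in 20 T1D cells (160 CPM) and 140 counts in 51 control cells (405 CPM), 2.53-fold lower (1.70 to 3.86). It serves the activating Ly49 receptors, and its call ended in 1 of 16 alternatives, that with further T cell genes at 0. Tyrobp is also abundant in myeloid cells: other kept cells had 203 CPM in T1D and 355 in control, and B cells held it in 22.1% and 34.9% of cells, at medians of 2256 and 3624 counts. Fcer1g was 632 CPM in T1D and 923 in control NK cells, and Hcst, the NKG2D adaptor, was 129 and 179 CPM. Lck had 181 and 206 CPM. Of 16 adaptor and kinase genes, 5 had ratios above 1 and 11 below, and Tyrobp was the one called.

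**Figure D3:**
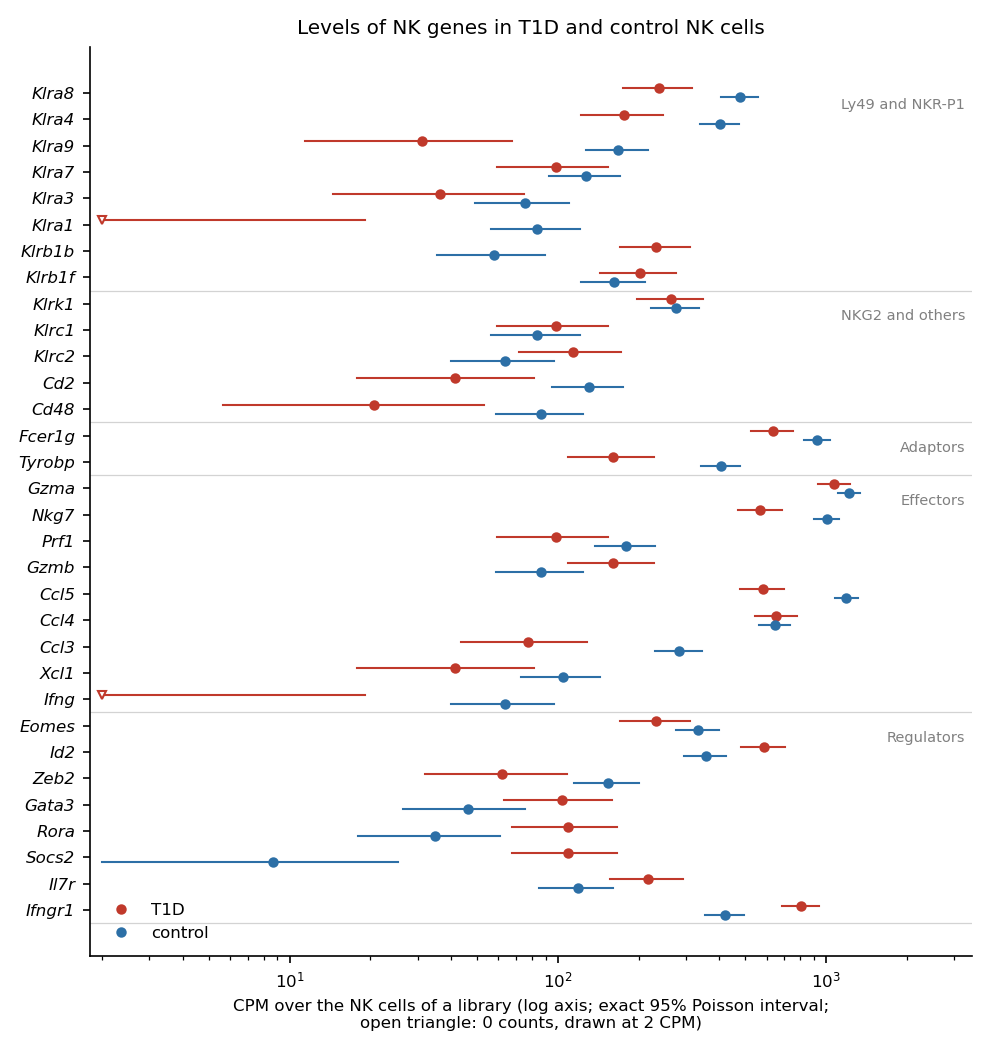
Points give CPM over the T1D (red) and control (blue) NK cells on a log axis, with exact 95% Poisson intervals; open triangles stand for 0 counts and are drawn at 2 CPM. Klra1 and Ifng have no count in T1D, Klrb1b and Socs2 lie higher in T1D, and Gzma, Ccl4 and Klrk1 have overlapping intervals.

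The granule program was present in both libraries. Gzma, the most abundant granzyme here, had 207 counts in 31 T1D cells (1072 CPM) and 421 counts in 52 control cells (1219 CPM), 1.14-fold lower with an interval of 0.961 to 1.35. Gzmb had 160 CPM in T1D and 86.8 in control NK cells. Prf1, which encodes perforin, had 98.4 CPM in 10 T1D cells and 179 CPM in 35 control cells, and neither was called. Nkg7, a granule membrane protein needed for degranulation, had 110 counts in 36 T1D cells (569 CPM) and 348 counts in 78 control cells (1007 CPM), 1.77-fold lower (1.42 to 2.21).

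The Nkg7 ratio of -0.82 fell short of the call. It was found in 59.0% of T1D and 88.6% of control NK cells, against 3.54% and 4.22% of B cells. Serpinb9, which protects the killer cell from its own granzyme B, had 331 CPM in T1D and 165 in control, a log2 ratio of 0.98. Ctsc, the protease that activates granzymes, was called lower, with 51.8 and 153 CPM, but not among low-background members (log2 ratio -0.86). It was the one call among 17 granule and death ligand genes, of which 4 had ratios above 1 and 13 below.

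Of 8 cytokine and chemokine genes measured, 6 had ratios below 1. Ifng had no count in T1D and 22 counts in 16 control NK cells (63.7 CPM). It was 4.10-fold lower when 3 counts are set for its T1D sum, and the interval of the fold begins at 3.06. Ccl3 had 15 counts in 10 T1D cells (77.6 CPM) and 98 counts in 37 control cells (284 CPM), 3.65-fold lower (2.11 to 6.78). Xcl1, a chemokine that draws cross-presenting dendritic cells, had 8 counts in 8 T1D cells (41.4 CPM) and 36 in 27 control cells (104 CPM), 2.52-fold lower (1.15 to 6.27). These 3 calls held among low-background members, while over the alternatives the call of Ifng ended in 1 and that of Xcl1 in 3 of 16.

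Ccl5 was the most abundant chemokine in control NK cells. It had 112 counts in 38 T1D cells (580 CPM) and 411 counts in 72 control cells (1190 CPM), 2.05-fold lower (1.66 to 2.55). This call lay at the threshold and ended in 9 of 16 alternatives, over which the log2 ratio ran from -1.38 to -0.75. Ccl4 had 652 CPM in T1D and 645 in control NK cells, with a log2 ratio of 0.01. Tnf had 0 and 10 counts, and Ltb had 135 and 66.6 CPM. In all, 4 of the 7 genes at 50 CPM were called lower and none higher, and the median of 8 was -1.13.

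Some of these genes also differed in T cells. In CD8 T cells, Ccl3 had 7.80 CPM in T1D and 91.2 in control, 11.7-fold lower (2.99 to 101). Ccl5 had 635 and 1004 CPM there, 1.58-fold lower (1.31 to 1.91) and short of the size of a call. Ifng had 3.90 and 37.1 CPM, below the minimum of 50 CPM. Ccl4, which was level in NK cells, had 50.7 CPM in T1D and 219.5 in control CD8 T cells, and 81.7 and 244 in T cells without CD8. T cells without CD8 had 15.7 and 205 CPM of Ccl3 and 6.28 and 35.8 CPM of Ifng. Nkg7 was 308 and 656 CPM in CD8 T cells, and Gzma 27.3 and 222 CPM.

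**Figure D4:**
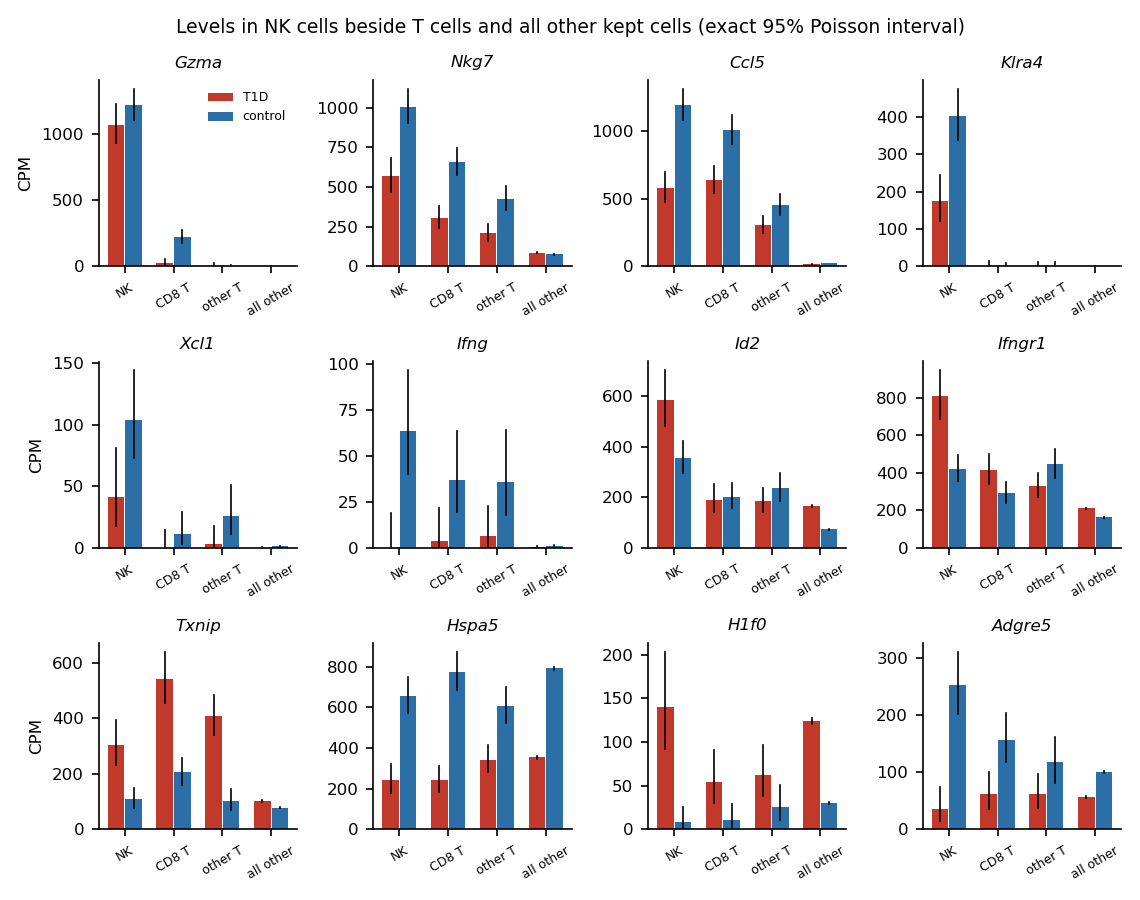
Bars give CPM of 12 genes in T1D (red) and control (blue) NK cells, CD8 T cells, T cells without CD8 and all kept cells other than NK cells (T cells included), with exact 95% Poisson intervals. Klra4 and Gzma are mainly in NK cells, Txnip is higher in T1D in each cell group drawn, and Hspa5 and Adgre5 are lower in T1D in each.

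Of 10 cytokine receptor genes, 6 had ratios above 1 and 4 below, with a median of 0.30, and 1 was called higher. Il2rb, the shared receptor chain for IL-2 and IL-15, had 600 CPM in 49 T1D cells and 787 CPM in 75 control cells. Il18rap was called higher, at 238 and 113 CPM, and its ratio in other kept cells ran the same way, at 160 and 70.5 CPM. That call ended in 5 of 16 alternatives, TMM scaling among them, over which the log2 ratio ran from 0.73 to 1.26. Ifngr1 had 156 counts in T1D (808 CPM) and 145 in control NK cells (420 CPM), 1.92-fold higher (1.52 to 2.43), and was called among low-background members at a log2 ratio of 1.16. Il7r had 217 and 119 CPM.

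Socs2, an inhibitor of cytokine signalling, showed one of the largest differences. It had 21 counts in 14 T1D NK cells (109 CPM) and 3 counts in 3 control NK cells (8.68 CPM), a fold of 12.5 with a counting interval of 3.74 to 65.5. It was called under all 16 alternatives, and among low-background members the log2 ratio was 3.56. CD8 T cells had 11.7 CPM in T1D and 0 in control, and other kept cells 1.88 and 2.42 CPM. Stat4, which carries the IL-12 signal, was called lower at 72.5 and 151 CPM, and that call ended in 8 of 16 alternatives.

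Of 16 transcription factors of the NK program, 11 had ratios above 1 and 5 below. Eomes, a rule gene, had 233 CPM in T1D and 333 in control, Ets1 611 and 559, and Id2 585 and 356. Tbx21 had 9 and 8 counts. Gata3, used by immature NK cells and by other innate lymphoid cells, was called higher, with 20 counts in 12 T1D cells (104 CPM) and 16 counts in 12 control cells (46.3 CPM), and its call ended in 5 of 16 alternatives. Ikzf2 was called higher with 20 counts in 9 T1D cells and 8 counts in 5 control cells. Zeb2, which drives terminal maturation, was called lower with 12 and 53 counts, at a log2 ratio of -1.24 and of -0.99 among low-background members.

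Rora, Tmem176a and Tmem176b, 3 genes often found in innate lymphoid cells other than conventional NK cells, were higher in T1D members. They belong to a list of 7 markers of group 1 innate lymphoid cells, of which Itga1 ran the other way. Tmem176b had 36 counts in 20 T1D cells (186 CPM) and 9 counts in 8 control cells (26.1 CPM), 7.15-fold higher (3.38 to 16.9). Its neighbour Tmem176a had 72.5 and 17.4 CPM. Rora, a nuclear receptor of innate lymphoid cells, had 21 counts in 15 T1D cells (109 CPM) and 12 counts in 7 control cells (34.7 CPM), 3.13-fold higher (1.47 to 6.98). All 3 were called, also among low-background members. B cells held Tmem176b in 8 of 113 T1D and 81 of 1351 control cells, and Rora in 2 and 5.

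At least 1 of Rora, Tmem176a and Tmem176b was found in 27 of 61 T1D NK cells (44.3%, 31.5 to 57.6%) and in 15 of 88 control NK cells (9.87 to 26.6%). A Ly49 gene outside the rule was found in 5 of the 27 T1D cells (18.5%, 6.30 to 38.1%) and in 17 of the 34 other T1D members (50%, 32.4 to 67.6%). In control it was found in 7 of the 15 cells (46.7%, 21.3 to 73.4%) and in 57 of the 73 others (78.1%, 66.9 to 86.9%). In both libraries the share was smaller in the cells with Rora or a Tmem176 gene, but the intervals overlap in each. Klrb1b was found in 14 of the 27 T1D cells and in 5 of the 34 others, against 2 of 15 and 11 of 73 control cells.

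The same 2 sets of T1D members were set side by side for other genes. Gzma was found in 15 of 27 and in 16 of 34, and at least 3 of the 11 outside NK genes in 20 of 27 and in 26 of 34. Gata3 was found in 8 of 27 (29.6%) and in 4 of 34 (11.8%), and Il7r in 10 of 27 and in 9 of 34. In control, Il7r was found in 7 of the 15 cells with Rora or a Tmem176 gene (46.7%) and in 10 of the 73 others (13.7%), and Gata3 in 3 of 15 and in 9 of 73. Itga1, a marker of tissue innate lymphoid cells, had 3 counts in T1D and 15 in control. The list of 7 markers of group 1 innate lymphoid cells holds Rora and both Tmem176 genes. Of its 5 measured genes, 4 had ratios above 1 and 3 were called higher, while Itga1 was below 1. Cxcr6 and Gzmc, the rest of the list, had too few counts to be measured. The sum of the list was 600.5 CPM in T1D and 246 in control. A list of 9 markers of group 2 innate lymphoid cells was added after the values were seen. All 3 of its measured genes, Gata3, Rora and Icos, had ratios above 1, and 2 were called higher. The 2 called were Gata3 and Rora, whose differences are given above, and Rora is in the group 1 list too. The sum of the list was 279.5 CPM in T1D and 95.5 in control, 2.93-fold higher (1.86 to 4.66). It contains these genes, so it is not evidence apart from them. Il1rl1 had 6 and 0 counts and was called among low-background members, and Il13 was at 0 in both. Whether the T1D members include other innate lymphoid cells was not tested.

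Maturation markers gave no single direction. Of 11 genes of immature NK cells, 6 had ratios above 1 and 5 below, and Cd7 and Xcl1 were called lower. Cd7 had 13 counts in 12 T1D cells (67.3 CPM) and 60 counts in 31 control cells (174 CPM), 2.58-fold lower (1.40 to 5.13), and the call held in all 16 alternatives. Its CPM was also lower in T1D in T cells without CD8 (18.8 and 94.4) and in other kept cells (4.35 and 17.6). Of 8 genes of mature NK cells, 5 had ratios above 1 and 3 below, with a median of 0.19, and of 0.67 among low-background members. Zeb2, Ccl5 and Emp3 were called lower and none higher, and of these the call of Emp3 was left among low-background members. The call of Zeb2 ended in 7 of 16 alternatives, and its CPM was also lower in T1D in T cells, B cells and other kept cells. Itgam (CD11b) was found in 37.7% of T1D and 22.7% of control NK cells, yet B cells held it in 34.5% and 31.6%, and low-background NK cells in 6 of 40 and 6 of 66.

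Of 16 trafficking genes, 1 was called in each direction. Selplg, the ligand of P-selectin, had 28 counts in 21 T1D cells (145 CPM) and 136 counts in 54 control cells (394 CPM), 2.72-fold lower, a log2 ratio of -1.41. S1pr1, a receptor for exit into blood, had 10 counts in 7 T1D cells and none in control. It was 5.96-fold higher when 3 counts are set for its control sum, and the interval of the fold begins at 4.01. Its CPM in all other kept cells together was 11.4 and 19.4, so the difference in that pool ran the other way. In lymphocytes S1pr1 ran the same way as in NK cells. CD8 T cells had 191 CPM in T1D and 148 in control, T cells without CD8 195 and 124, and B cells 152 and 70.2. Ccr2 had 590 CPM in T1D and 669 in control, and Cxcr4 456 and 324.

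Adgre5, the adhesion receptor CD97, was found in more control NK cells than the other lower genes named over all genes. It had 7 counts in 6 T1D NK cells (36.2 CPM) and 87 counts in 48 control NK cells (252 CPM), a log2 ratio of -2.64. B cells held it in 17 of 113 T1D and 454 of 1351 control cells, and CD8 T cells had 62.4 CPM in T1D and 157 in control. Ubqln2 and Bmpr2 had no T1D counts and 19 control counts each. H1f0, a linker histone of resting cells, was higher with 27 counts in 14 T1D cells and 3 in 3 control cells, but it was also higher in other kept cells, at 124 and 30.1 CPM.

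Part of the genes of protein folding were called lower. All 13 measured genes of the unfolded protein response had a ratio below 1, with a median of -0.56, and 5 were called lower: Hspa5, Calr, Pdia6, Herpud1 and Manf, while 8 were not called. Hspa5, the chaperone BiP, had 47 counts in 32 T1D cells (243 CPM) and 227 counts in 65 control cells (657 CPM), 2.70-fold lower (1.97 to 3.78). The other kept cells differed likewise, at 354 and 793 CPM. Of 9 heat shock genes, 3 had ratios above 1 and 6 below, and Hsph1 and Dnaja1 were called lower. Both were also lower in T1D in other kept cells, at 9.54 and 59.7 CPM for Hsph1 and 132 and 205 CPM for Dnaja1.

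Immediate early genes had ratios below 1 for 13 of 15. Fos had 128 counts in 43 T1D cells (663 CPM) and 582 counts in 76 control cells (1685 CPM), 2.54-fold lower (2.10 to 3.10). It was also lower in T1D in CD8 T cells (709 and 1149 CPM) and in T cells without CD8 (905 and 1292). Other kept cells had 1509 and 1908 CPM of Fos, while B cells had 1321 and 1273. Atf3 had 1 and 30 counts, and other kept cells had 39.6 and 123 CPM of it. Fosb and Dusp1 were called lower, but not among low-background members (log2 ratios of -0.67 and -0.70). Junb had 859 and 851 CPM, and Nfkbia 714 and 533.

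Glucocorticoid-induced genes split. Txnip, which limits glucose uptake and is induced by glucose, had 59 counts in 28 T1D NK cells (305 CPM) and 38 counts in 25 control NK cells (110 CPM), 2.78-fold higher (1.82 to 4.29). It was also higher in CD8 T cells, at 542 and 205 CPM, and in T cells without CD8, at 408 and 104 CPM. Its ratio among NK cells with at least 3 rule genes was 0.14 on the log2 scale. Fkbp5 and Tsc22d3 had 104 and 150 CPM in T1D and 52.1 and 83.9 in control and were not called, and Sgk1 was called lower with 1 and 20 counts. None of 12 glycolysis genes was called, with a median of -0.12.

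Among 13 genes of MHC class I presentation, 1 was called in each direction. H2-K1 had 1144 CPM in T1D and 1334 in control, H2-D1 1123 and 1022, and B2m 989 and 1482. Tap1 was called lower (62.1 and 133 CPM) and Tap2 higher (62.1 and 23.2 CPM), calls that ended in 5 and in 10 of 16 alternatives. All 7 mitochondrially encoded genes had ratios below 1, with a median of -0.55, and mt-Cytb was called. That call ended in 8 of 16 alternatives. In other kept cells the sum of the list was 1438 CPM in T1D and 3116 in control. Of 6 measured genes of the type I interferon response, Ifi27l2a was called lower with 0 counts in T1D and 25 counts in 6 control cells, of which 1 cell held 36.0%. Ifi27l2a was also lower in other kept cells, at 8.99 CPM in T1D and 103.6 in control, and in B cells, at 21.7 and 109 CPM.

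Counts of both Mki67 and Top2a, genes of dividing cells, were found in 12 of 61 T1D NK cells (19.7%, 10.6 to 31.8%) and in 21 of 88 control NK cells (23.9%, 15.4 to 34.1%). Among low-background members they were found in 4 of 40 and in 15 of 66, and among the rest in 8 of 21 and 6 of 22. Mki67 was 813 CPM in T1D and 857 in control over all members. Of 14 genes of G2 and mitosis, 3 had ratios above 1 and 11 below with a median of -0.40, and Tpx2 was called lower. Among low-background members all 14 were below 1, with a median of -1.07, and 7 were called lower. The direction of Tpx2 turned when the cells with Mki67 and Top2a were left out, so it rests on those cells.

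**Figure D5:**
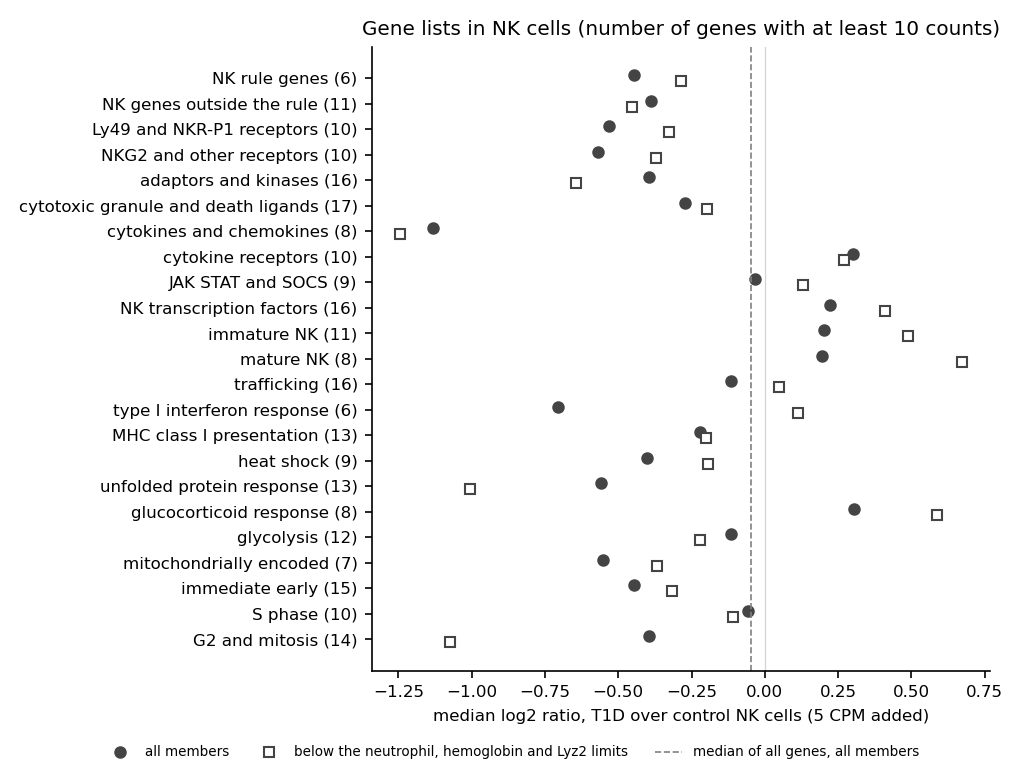
Each row is a gene list, with the number of genes that had at least 10 counts, and gives the median log2 ratio of T1D over control NK cells for all members (filled circles) and for low-background members (open squares). The dashed line is the median of all genes (-0.05); cytokines and chemokines lie farthest below it, and the G2 and mitosis and unfolded protein response lists lie lower among low-background members.

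Markers of other cell types in the members bear on genes that NK cells share with them. Hemoglobin genes were 5606 CPM in T1D and 1305 in control NK cells, and 1 T1D cell held 1024 of those counts. The erythroid list had 4 of 5 genes called higher over all members and none among low-background members. Lyz2 was 952 and 1986 CPM, and plasma cell genes were 88.0 and 37.6 CPM. The part of these transcripts in the differences above was not tested beyond the values given for low-background members.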

How the data were processed

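Single-cell RNA libraries of marrow were analysed as 1 T1D and 1 control library, as labelled. The authors' deposited tables hold raw counts per gene and barcode, as the values show, with no normalization. The submitters' processing notes name bcl2fastq 2.19, featureCounts and the build mm9. The aligner, the annotation and any collapsing of molecular identifiers were not given in the sources used here.

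Genes absent from a table counted as 0 there (22384 of 27842 genes were in both). Filtering removed 192 T1D and 77 control barcodes. Counts of the members were summed per library and scaled to CPM. Intervals are exact Poisson for CPM, exact Clopper-Pearson for shares and exact conditional binomial for ratios. Counting intervals do not cover differences between mice or preparations. B cells held Cd79a and Cd79b and none of the 6 rule genes. T cells held at least 2 of Cd3d, Cd3e, Cd3g and Trac, under 2 rule genes and no Cd79a or Siglech, and were split by Cd8a or Cd8b1. Other kept cells are all that are not members. CT010467.1, a ribosomal RNA feature, took 36.4% of T1D and 34.5% of control member counts. Alternatives changed 1 choice at a time, apart from 1 that left out both the cells with Mki67 and Top2a and the members past the 3 limits, and included TMM factors (edgeR 4.0.16) and size factors (DESeq2 1.42.0) for the sums, without a test. Python 3.11.15, scipy 1.17.1 and R 4.3.3 were used. Promoters were aligned with Biopython 1.88.

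Named genes are the 6 of the rule, of each list the called members (up to 5) and the 3 of highest CPM, and up to 15 called genes over all in each direction with no cell above 20% of the counts; Rora, Tmem176a, Klra3, Klra7 and the other genes given were named after their values were seen. Some genes that the rule named are not reported here. Members and lists were chosen with earlier results of these data known.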

Additional observations from a re-analysis of the deposited data

How the results depend on the processing

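The NK share ratio of T1D over control stayed below 1 in all 15 alternatives. It was 0.319 with at least 3 of the 6 rule genes, 0.390 with Klrd1 left out of them and 0.822 with 3 of the 11 outside genes; the last 2, and the limits on neutrophil, hemoglobin and Lyz2 counts, were chosen after seeing the data. Genes called higher in T1D numbered 298 with at least 20 CPM, 298 with no CPM minimum and 83 with 1000 counts drawn per member. Genes called lower numbered 91 with 1000 counts drawn and 126 with T cell genes allowed. Calls split 152 higher to 255 lower under TMM scaling and 226 to 185 with at least 3 rule genes, against 180 to 222 as reported. The log2 ratio of Tpx2 turned to 0.39 without cells holding Mki67 and Top2a and to 1.74 without those and the members past the 3 limits, and that of Irf9 turned to 0.076 with T cell genes allowed. With T cell genes allowed, the calls of Fos (-0.47), Hspa5 (-0.80) and Selplg (-0.96) ended; the cause was not tested. Of 1968 values of single genes under alternatives, 212 lost a call, 3 more turned direction and 29 gained a call. The 1968 values include genes not called as reported, which could not lose a call, so the share lost among called genes is larger. Subtracting free RNA at the hemoglobin level was not run, since hemoglobin genes in T1D NK cells stood at 331% of their level over all kept cells; the plasma cell level (5.93% in T1D, 1.98% in control) was used instead. No replicate could be left out. No paired analysis was possible because each group is 1 library. At this depth a gene with no count in T1D NK cells may lie up to 15.5 CPM, or 8.68 CPM in control.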
